A study of Mus musculus with 4 samples.

Results

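The BMP response genes are 10 members of the bone morphogenetic protein (BMP) pathway, followed here site by site: the receptors Bmpr1a and Bmpr2, the signal transducers Smad1 and Smad5, the inhibitory Smads Smad6 and Smad7, and the target genes Id1, Id2, Id3 and Id4. Their rows were taken by gene symbol, the members having been proposed with earlier results of these data known, and their 868 distinct listed positions are part of 833043 positions in 20001 genes. The material was day 6 retinal organoids grown from the Rx:GFP mouse line, in which an FKBP12F36V-HA tag was knocked into the C-terminus of the endogenous Mettl3 gene, the catalytic subunit of the enzyme that writes N6-methyladenosine (m6A) on mRNA. The tag makes the protein a target for degradation by the small molecule dTAG13. The comparison was between groups of 2 libraries each: organoids without dTAG13 (0 nM) and organoids given 125 nM dTAG13 for 8 h, both harvested together, both carrying the tagged Mettl3 and both grown in a serum replacement medium with AGN. The tagged line without dTAG13 is thus the only control, and a parental line without the tag was not analysed here. In the genotype labels 1 library carries the name Mettl3 and the others carry names of further Mettl genes, whereas the growth protocol and the series design name Mettl3 for all. The labels do not say whether the 2 libraries of a group came from separate cultures or clones, so p-values measure only the spread between these libraries, which may be technical.

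BMP ligands bind pairs of type I receptors, such as Bmpr1a, and type II receptors, such as Bmpr2, which phosphorylate Smad1 and Smad5. The activated Smads move to the nucleus with Smad4 and switch on the Id genes, whose proteins bind basic helix-loop-helix factors and hold cells back from differentiation, and also Smad6 and Smad7, which feed back to shut the pathway down. In the early eye this pathway helps pattern the optic vesicle and the retinal field. m6A lies mostly in the last exon and the 3' untranslated region of mRNAs and can change how long an mRNA lasts and how well it is translated.

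In GLORI, glyoxal and nitrite turn unmethylated A into a base that is read as G, while m6A is still read as A. The level of a site is therefore the share of its A and G reads that are A. The deposited tables list called sites only, each with at least 15 A and G reads, at least 5 A reads, a level of at least 10% and an adjusted p of at most 0.00401 from the authors' own test. A position absent from a table may be unmethylated, below these limits or uncovered, and its level there is not given. For this reason the nearest listed site, in most cases with its reads, stands beside many of the absences below. Sites are given by chromosome and position as listed. The submitters' processing notes name mm10, but only 5 of the 868 positions lie inside the RefSeq GRCm38 interval of their gene, all in Bmpr2, while the span of listed positions is no longer than the RefSeq gene in 9 of the 10. The build of the positions was therefore not settled, and exon, intron or untranslated region was not assigned. In its place the distance to the most 3' listed position of the same gene is given. Intervals on levels are 95% Wilson intervals and cover counting error only, since the removal of PCR copies is not given in the sources used here.

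Across all genes the untreated libraries listed 260741 and 272174 sites and the dTAG13 libraries 178739 and 201935, with a median of 75 to 91 reads per site. Library medians of gene coverage were 99.2 and 103.2 untreated and 82.4 and 110.9 after dTAG13. All 6 retinal progenitor markers on the list (Rax, Pax6, Six3, Six6, Lhx2, Sox2) were listed in all 4 libraries, with summed coverage of 2518 and 2991 untreated and 1867 and 2687 after dTAG13. The 4 pluripotent cell markers were also listed in every library, at 867 and 883 untreated and 615 and 799 after dTAG13, as were 3 of the 4 pigment epithelium markers, whose list summed to 323 to 378. None of the 3 neural crest markers and 1 of the 4 mesoderm and endoderm markers (Sox17) was listed in all libraries, and T and Mixl1 were listed in none. The part of such cell types in the results below was not tested, and in these bulk samples fewer cells of a type and less RNA per cell cannot be told apart.

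The 10 BMP genes had 233 and 283 listed sites in the untreated libraries and 195 and 222 after dTAG13. The means were 258 ± 35.4 and 208.5 ± 19.1 (SD, n = 2 each), and the groups did not overlap. The ratio of the means was 0.808, against 0.714 over all genes, and it was 0.692 without Bmpr1a, which alone held 63 to 80 of the sites in each library. With 2 libraries against 2, an exact permutation test cannot go below p = 0.33.

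Receptors. Bmpr1a, the type I receptor needed for much of early BMP signalling, had 73 and 63 listed sites untreated and 80 and 74 after dTAG13. Every dTAG13 library thus listed more Bmpr1a sites than either untreated library, although the series as a whole listed fewer. Relative to all listed sites in genes, the log2 fold change was 0.67, with adjusted p = 0.0853 in edgeR's quasi-likelihood test with Benjamini-Hochberg adjustment, which is short of the 0.05 threshold. The adjusted p ran from 0.0707 to 0.9995 under the alternatives tried. Bmpr2, the type II receptor that phosphorylates Bmpr1a, had 30 and 28 sites untreated and 21 and 24 after dTAG13. Its groups did not overlap either, but its log2 fold change relative to all listed sites was 0.12 (edgeR adjusted p = 0.934).

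Transducers and inhibitors. Smad1 had 14 and 26 listed sites untreated and 13 and 11 after dTAG13. Smad5, its close relative, had 44 and 75 untreated and 21 and 39 after dTAG13. In both transducers the 2 dTAG13 libraries lay below the 2 untreated ones, with log2 fold changes relative to all sites of -0.24 and -0.50 (edgeR adjusted p = 0.884 and 0.436). The Smad5 value was -0.10 without untreated replicate 2, -0.21 without dTAG13 replicate 1, -0.81 without untreated replicate 1 and -0.92 without dTAG13 replicate 2. Smad6, which blocks receptor-activated Smads, had 13 and 15 sites untreated and 4 and 6 after dTAG13. Both dTAG13 counts lay below both untreated counts, with a log2 fold change of -0.99 (edgeR adjusted p = 0.533). Smad7, which blocks the receptors, had 9 and 15 sites untreated and 5 and 9 after dTAG13, so that 1 value was shared between groups, with a log2 fold change of -0.29 (edgeR adjusted p = 0.897).

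Target genes. Id2 had 12 and 13 listed sites untreated and 20 and 20 after dTAG13. With Bmpr1a it was the other gene of the 10 in which both dTAG13 libraries exceeded both untreated ones, and its log2 fold change relative to all sites was 1.16 (edgeR adjusted p = 0.196). Id1 had 21 and 16 sites untreated and 14 and 13 after dTAG13, so the groups did not overlap. Relative to all sites its log2 fold change was 0.03 (edgeR adjusted p = 0.986). Id3 had 8 and 11 sites untreated and 8 and 7 after dTAG13, and Id4 had 9 and 21 untreated and 9 and 19 after dTAG13, and in both genes the groups overlapped. Their log2 fold changes were 0.15 and 0.38 (edgeR adjusted p = 0.953 and 0.814).

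Before any scaling, 2 of the 10 genes had more listed sites in both dTAG13 libraries, 5 had fewer (Id1, Bmpr2, Smad1, Smad5, Smad6) and 3 overlapped. By the same rule 4.51% of all 12449 genes tested had more sites in both dTAG13 libraries and 46.4% had fewer, so the 5 lower genes are close to the share over all genes. None of the 10 passed an adjusted p of 0.05 in edgeR, where 0.466% of 12449 genes did. DESeq2 called no gene at all in the same comparison. At an unadjusted p under 0.05, 2 of the 10 (Bmpr1a and Id2, both higher) passed, against 11.5% of all genes. The median log2 fold change was 0.07 over the BMP genes and -0.03 over all genes tested. Without the offset for all listed sites, the log2 fold change was 0.18 for Bmpr1a and 0.67 for Id2, and it turned negative for Bmpr2 (-0.36), Id1 (-0.45), Id3 (-0.34) and Id4 (-0.10).

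**Figure D1:**
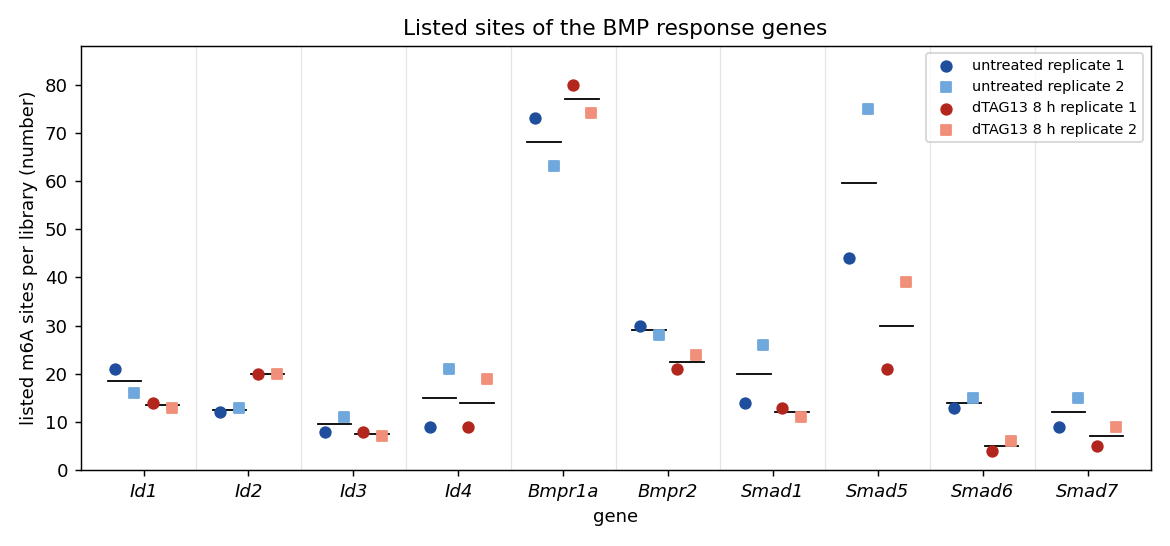
Number of listed sites of each BMP gene in each of the 4 libraries (vertical axis, number of sites), with untreated and dTAG13 libraries in separate colours and a line at each group's mean. Bmpr1a and Id2 have more listed sites in both dTAG13 libraries, whereas Id1, Bmpr2, Smad1, Smad5 and Smad6 have fewer.

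Few positions recurred. Of the 868 positions, 807 were listed in 1 library, 57 in 2 libraries, 4 in 3 and 0 in all 4. The share listed in at least 2 libraries was 7.03%, against 8.65% over all genes. The untreated pair had 21 positions in common, which were 9.01% of replicate 1 and 7.42% of replicate 2, against 9.62% and 9.22% over all genes. The dTAG13 pair had 8, which were 4.10% and 3.60%, against 6.24% and 5.52%. Pairs of libraries from different groups had 9 to 11 in common, which were 3.18 to 5.64% of a library's sites, against 4.76 to 7.25% over all genes. When a listed site within 5 bases counted as the same, 23.2% of the sites of untreated replicate 1 had a partner in untreated replicate 2, against 19.4% over all genes, and 14.9% of the sites of dTAG13 replicate 1 had one in dTAG13 replicate 2, against 15.2%. At the 21 positions the levels of the untreated libraries differed by a median of 12.1 percentage points (range 0.108 to 71.1), and at the 8 positions those of the dTAG13 libraries differed by 10.95 points (3.55 to 76.4). Of the 21 positions listed in both untreated libraries, 18 were listed in neither dTAG13 library (85.7%, against 79.99% over all genes), and of the 8 in both dTAG13 libraries 7 were in neither untreated library (87.5%, against 68.8%).

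The Bmpr1a site at chr14:34136294 (minus strand, 3276 bases upstream of the most 3' listed position) had the highest levels of any BMP site listed in 3 libraries. Its level was 99.3% of 299 reads in untreated replicate 1 and 99.5% of 563 reads in untreated replicate 2. After dTAG13 it was 28.4% of 455 reads (24.4 to 32.7%) in replicate 1 and was not listed in replicate 2, whose nearest listed site lay 74 bases away with 57 reads. The 2 untreated levels were nearly alike and the 1 dTAG13 level lay far below both. A quasi-binomial model over the 3 libraries, with its dispersion moderated by limma over 4260 sites, gave a difference of -71.0 percentage points, p = 0.000366 and an adjusted p of 0.118. In that comparison no site passed the adjusted threshold and 11.5% had an unadjusted p under 0.05. The lone dTAG13 library was there assumed to vary as the untreated pair does.

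Another Bmpr1a site 82 bases away, chr14:34136212, had levels of 69.7% (881 reads) and 52.5% (442 reads) in the untreated libraries and was not listed after dTAG13. The nearest listed site in dTAG13 replicate 1 was 4 bases away, at 39.5% of 167 reads, while in replicate 2 it was 118 bases away, at 21.5% of 814 reads. The weaker site chr14:34136124 was listed at 17.0% (106 reads) and 14.7% (102 reads) untreated and not after dTAG13. Its nearest dTAG13 sites were 13 bases away (54 reads) and 30 bases away (814 reads). The 3 Bmpr1a positions named so far lay between 3106 and 3276 bases from the most 3' one. Nearer the 3' end, 3 positions were instead listed in both dTAG13 libraries alone. The site chr14:34133293 was at 13.3% (255 reads) and 24.3% (383 reads) after dTAG13. The levels at chr14:34135305 were 13.9% (273 reads) and 21.7% (249 reads). Those at chr14:34135450 were 10.7% (355 reads) and 23.5% (395 reads). Untreated libraries listed other sites 1 to 115 bases from these positions at levels of 10.6 to 21.7%, so the stretch was covered in both groups. Of the 271 Bmpr1a positions, 194 (71.6%) lay within 5000 bases of the most 3' one, and this stretch held 54 and 46 listed sites untreated and 55 and 55 after dTAG13.

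**Figure D2:**
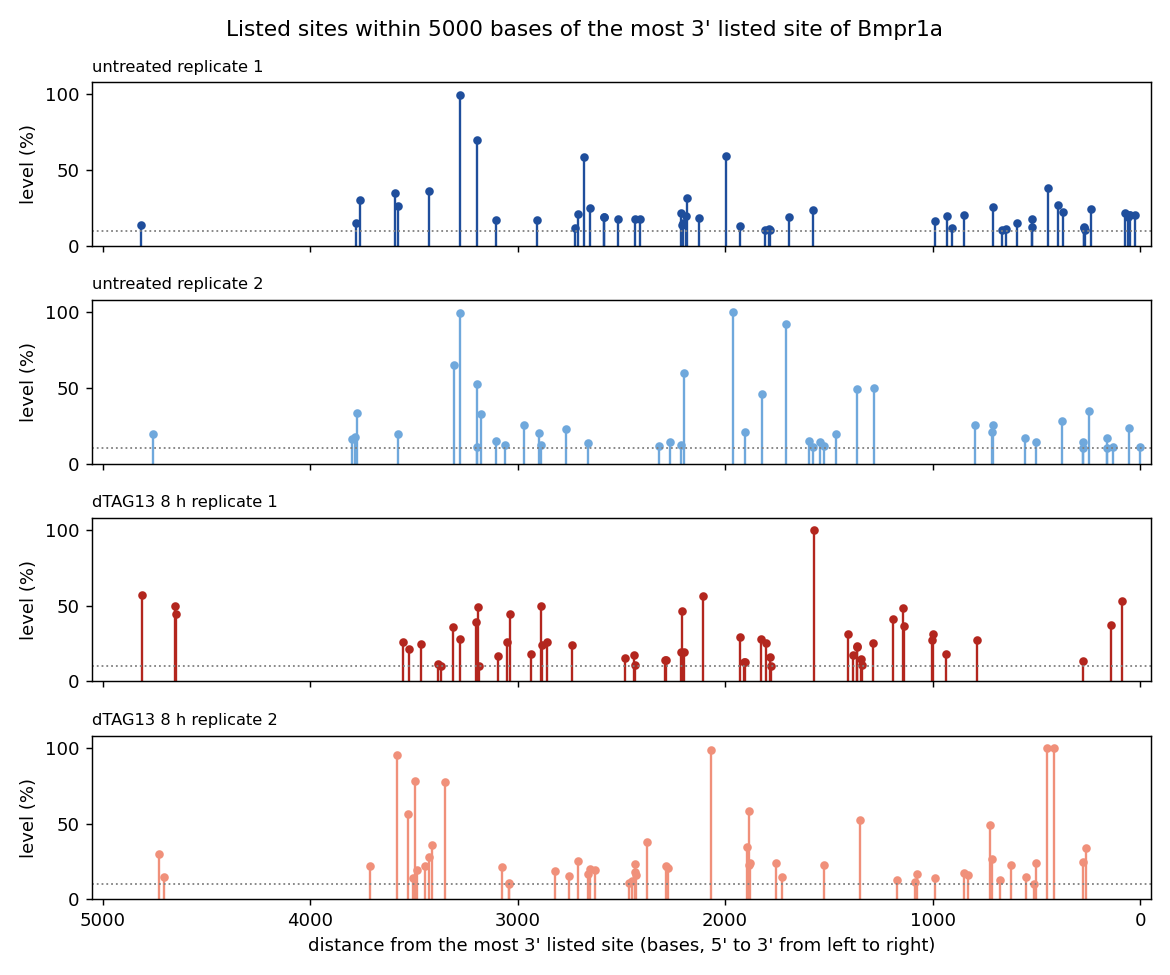
Listed Bmpr1a sites within 5000 bases of the most 3' listed position, by distance from it (horizontal axis, bases) and level (vertical axis, percent), with 1 panel per library and a dotted line at the 10% limit. At 3276 bases the untreated libraries stand at 99.3 and 99.5% and dTAG13 replicate 1 at 28.4%, while other positions reach high levels in either group.

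No Bmpr2 site was listed in 3 libraries or in both libraries of a group alone with at least 50 reads. Several Bmpr2 sites were listed at 100%, among them chr1:59912554 with 69 reads in untreated replicate 2 and chr1:59914946 with 106 reads in dTAG13 replicate 2. The median level of its listings was 41.2 to 95.5% over the 4 libraries, against 18.1 to 25.2% for Bmpr1a. The listings of Bmpr2 were shallower, with a median of 47 reads against 155.5 for Bmpr1a, and the part of depth in this contrast was not tested.

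Smad6 carried a pair of positions that were listed in both untreated libraries and in neither dTAG13 library. At chr9:63928875 (minus strand, 68304 bases from the most 3' listed position, toward the 5' end of a listed span of 68465 bases) the level was 72.8% (397 reads) and 85.3% (421 reads) untreated. Neither dTAG13 library listed it, with the nearest listed sites 98 bases away (185 reads) and 120 bases away (139 reads). The position chr9:63928964 differed more between the untreated libraries, at 28.9% (256 reads) and 100% (116 reads), and was absent after dTAG13. Its nearest dTAG13 sites were 187 bases away (185 reads) and 31 bases away (139 reads). In the same 5' stretch dTAG13 replicate 2 alone listed chr9:63928724 at 99.8% of 473 reads, the highest Smad6 level after dTAG13 among sites with at least 50 reads. The conversion rate of Smad6 was 94.6% in untreated replicate 1 and 88.7% in untreated replicate 2. These libraries listed 1 and 7 Smad6 sites at 90% or more. The part of conversion in these levels was not tested.

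The Smad1 site chr8:80082942 was listed in 3 libraries with few reads, at 52.4% (84 reads) and 29.3% (41 reads) untreated and 20.7% (29 reads; interval 9.85 to 38.4%) in dTAG13 replicate 1. The difference of -20.1 percentage points had an adjusted p of 0.835 in the same limma-moderated model. In Smad5, chr13:56886558 was listed in the untreated libraries alone, at 50.5% (99 reads) and 24.0% (154 reads). A position 461 bases upstream, chr13:56886097, was listed in the dTAG13 libraries alone, at 57.3% (89 reads) and 52.5% (139 reads). In both dTAG13 libraries chr13:56886097 was the listed site nearest to chr13:56886558. Listed sites lay 130 and 63 bases from chr13:56886097 in the untreated libraries, with 191 and 181 reads. Smad7 had a pair of neighbouring positions listed in the untreated libraries alone. At chr18:75528360 the levels were 11.2% (312 reads) and 13.7% (175 reads), and at chr18:75528387 they were 28.6% (161 reads) and 15.9% (239 reads). The nearest dTAG13 sites were 84 to 253 bases away, with 65 reads in replicate 1 and 55 in replicate 2.

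Among the Id genes, Id3 had the highest level at a position listed in both untreated libraries. At chr4:135872575 (plus strand, 123 bases from the most 3' listed position) the level was 58.8% of 1979 reads (56.6 to 60.9%) and 56.3% of 2013 reads (54.2 to 58.5%) untreated. It was not listed after dTAG13, where the nearest sites lay 48 bases away with 187 reads and 57 bases away with 423 reads. A weaker Id3 site, chr4:135871413, was at 16.1% (1683 reads) and 10.9% (2407 reads) untreated and absent after dTAG13, with listed sites 27 and 63 bases away (642 and 1362 reads). Id3 sites at a level of 40% or more numbered 2 and 4 in the untreated libraries and 0 and 0 after dTAG13. Smad5 (19 and 21 untreated against 14 and 17) and Smad6 (11 and 14 against 2 and 4) also had fewer such sites in both dTAG13 libraries. Bmpr1a had more, with 13 and 11 untreated against 19 and 15, and the other BMP genes overlapped. The share of all genes in either direction was not counted. The ratio of the mean numbers, dTAG13 over untreated, was 0.847 over the 10 genes and 0.772 over all genes. The highest Id3 level among sites with at least 50 reads was 70.7% untreated (601 reads, replicate 2) and 26.4% after dTAG13 (53 reads, replicate 2). These levels belong to different positions and depths. By the same rule Id1 ran the other way, with 47.3% untreated (55 reads) and 100% after dTAG13 (51 reads). Id2 had 98.1% (369 reads) against 81.6% (76 reads), and Id4 99.4% (160 reads) against 100% (82 reads).

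Id1 had the deepest site of the 10 genes, chr2:152579176, 102 bases from its most 3' listed position. Its level was 32.1% of 4161 reads and 18.4% of 5319 reads untreated, and it was absent after dTAG13, where sites 34 bases away (10.7% of 2369 reads) and 48 bases away (24.2% of 600 reads) were listed. The untreated intervals, 30.7 to 33.5% and 17.4 to 19.5%, did not meet, so replicates differed by far more than counting error at this depth. At chr2:152578950 the untreated levels were 20.0% (105 reads) and 41.6% (274 reads), again with no dTAG13 listing. The dTAG13 sites nearest to it were 3 bases away (51 reads) and 71 bases away (62 reads). The Id1 site listed in 3 libraries, chr2:152579027, was at 21.3% (287 reads) and 14.3% (427 reads) untreated and 15.2% (79 reads) in dTAG13 replicate 2. Its dTAG13 level lay between the untreated ones, and the limma-moderated model gave -2.58 percentage points (adjusted p = 0.970), where 13.5% of 4636 sites had an unadjusted p under 0.05.

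Id2 had sites of both kinds. At chr12:25144081 (minus strand) the untreated levels were 26.8% (567 reads) and 38.9% (633 reads), and neither dTAG13 library listed it, though both listed a site within 29 bases (539 and 958 reads). At chr12:25145342 they were 11.9% (614 reads) and 12.0% (275 reads), with no dTAG13 listing. The nearest dTAG13 sites were 346 bases away (110 reads) and 23 bases away (213 reads). At chr12:25145734 only the dTAG13 libraries had a listing, at 11.9% (67 reads) and 22.9% (214 reads). The nearest untreated sites were 199 bases away (212 reads) and 43 bases away (148 reads). Positions of both kinds thus lay within the same 2256 bases. The site chr12:25143863 was listed in untreated replicate 1 at 31.0% (71 reads) and in the dTAG13 libraries at 16.0% (119 reads) and 19.5% (82 reads). Its difference was -13.2 percentage points (limma-moderated adjusted p = 0.814), where 8.78% of 3529 sites had an unadjusted p under 0.05. A near-complete level of 98.1% (369 reads) was listed at chr12:25144359 in untreated replicate 1, and the same position was at 20.2% (526 reads) in dTAG13 replicate 2 and in no other library. In Id1, chr2:152578507 was at 47.3% (55 reads) in untreated replicate 1 and 29.2% (48 reads) in dTAG13 replicate 1. Other positions ran the opposite way. In Id1, chr2:152578955 was at 11.5% (234 reads) in untreated replicate 2 and 100% (51 reads) in dTAG13 replicate 1. In Smad5, chr13:56885290 was at 19.5% (195 reads) in untreated replicate 1 and 100% (61 reads) in dTAG13 replicate 2. In Id4, chr13:48416608 was at 33.5% (173 reads) and 25.1% (407 reads) untreated. Neither dTAG13 library listed it, but each had a higher site close by, at 96.4% of 56 reads 8 bases away and at 51.4% of 259 reads 1 base away.

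**Figure D3:**
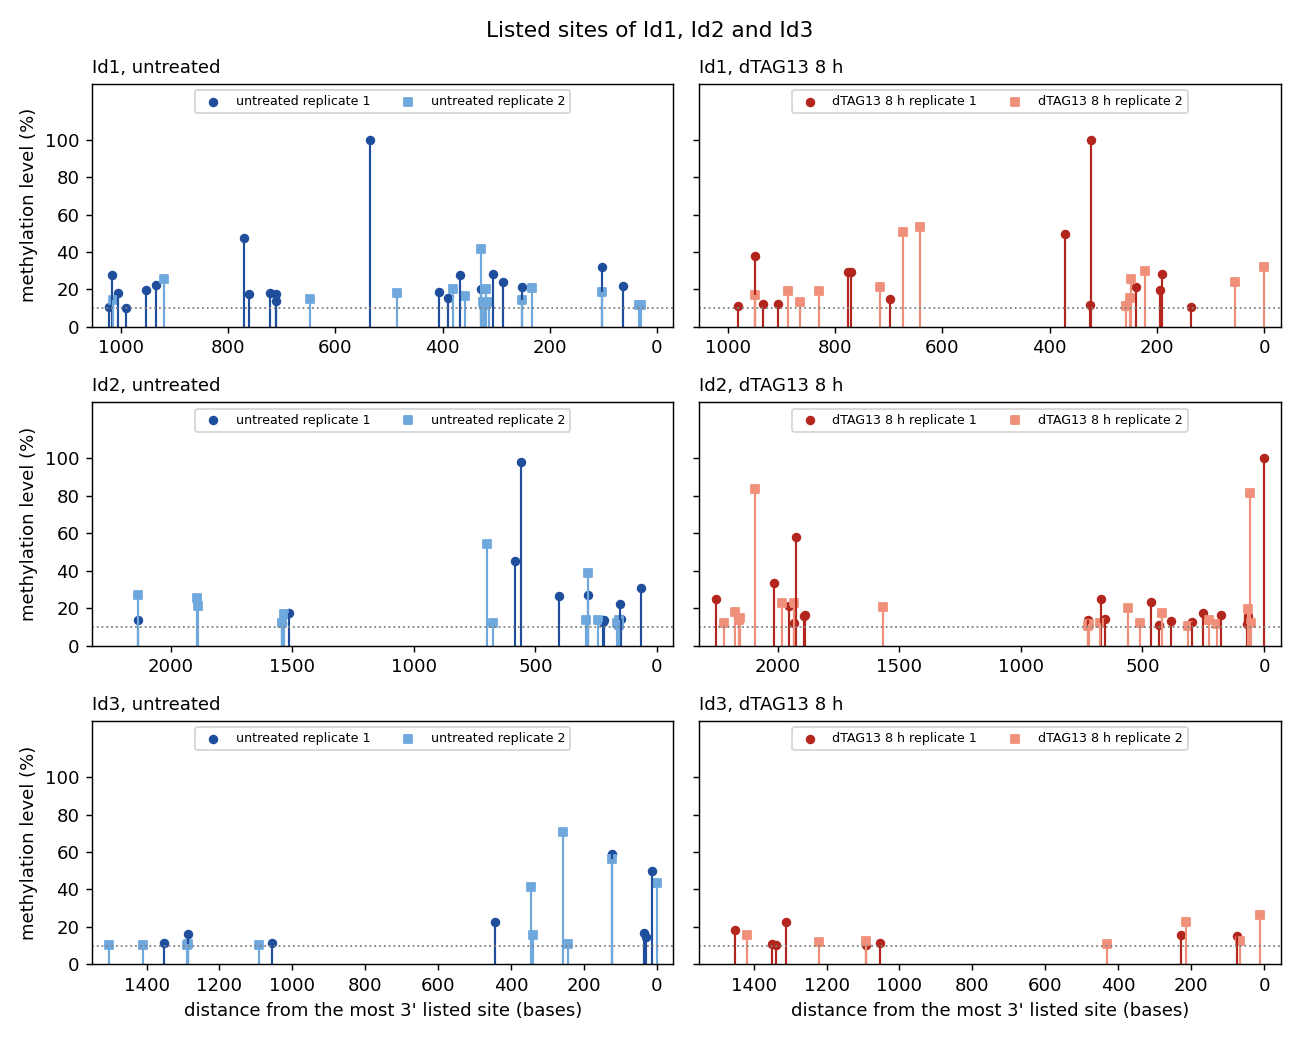
Listed sites of Id1, Id2 and Id3 by distance from the most 3' listed position (horizontal axis, bases) and level (vertical axis, percent), by group and library. Id3 has points at 40% or more only in the untreated panel, whereas Id1 and Id2 have such points in both groups. The dotted line marks the 10% limit of the tables.

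In all, 4 positions were listed in 3 libraries, 14 with at least 50 reads in both untreated libraries and neither dTAG13 library, and 5 in the reverse pattern. These were 1.61% and 0.576% of the 868 positions, against 1.78% and 0.713% of the positions of all genes. All 4 Id genes, both inhibitory Smads, Bmpr1a and Smad5 had a position of the untreated kind. The dTAG13 kind was found in Bmpr1a, Id2 and Smad5.

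**Figure D4:**
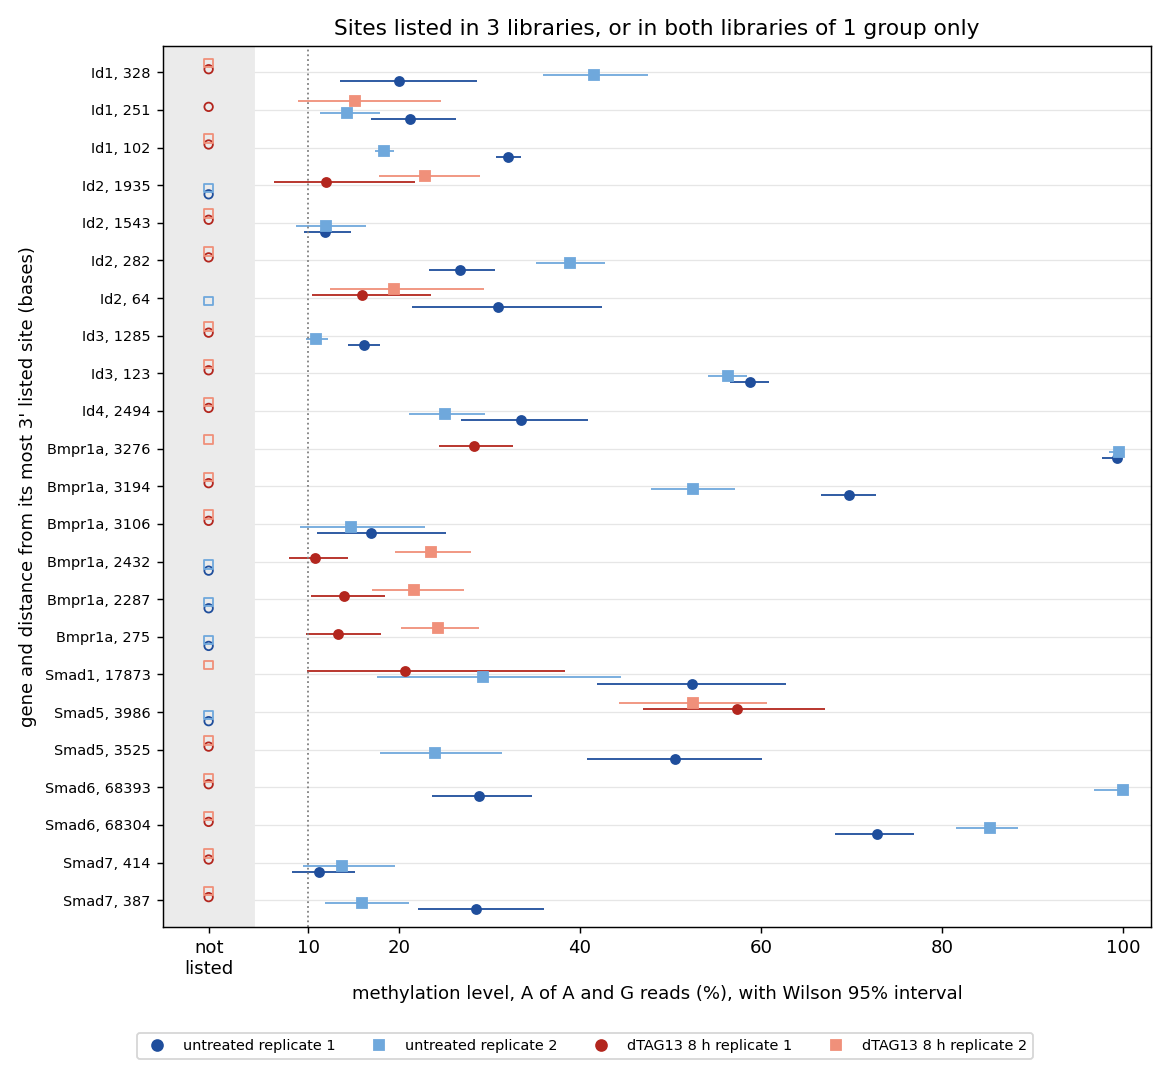
Level (percent) of the BMP sites listed in 3 libraries or in both libraries of 1 group alone, 1 filled point per listing library, with 95% Wilson intervals as bars and open points at the left where a library did not list the site. The vertical axis names the gene and its distance in bases from the most 3' listed position, and 14 of the 23 sites are listed in the untreated libraries alone.

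Levels near 100% were mostly shallow. The BMP genes had 32 and 41 sites at 90% or more in the untreated libraries and 22 and 40 after dTAG13, and at least 72.5% of these had fewer than 50 reads in each library. Their median was 26.5 to 36.5 reads, against 174 to 196 reads for sites at 10 to 20%. Over all genes 67.0 to 77.7% of the sites at 90% or more had fewer than 50 reads, with a median of 31 to 36 reads. The ratio of the mean numbers of such sites, dTAG13 over untreated, was 0.849 both for the BMP genes and for all genes. The median level of a gene's listings was 10.9 to 16.5% over the 4 libraries in Id3, 13.7 to 19.9% in Id2 and 15.6 to 21.1% in Id1. It was far less even in Id4 (15.5 to 95.7%), Smad7 (28.6 to 99.1%) and Smad6 (39.8 to 99.5%), so Id4 was not set apart from the other Id genes in every library.

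Gene coverage, a value the authors give per gene, was compared next. Whether it is per length is not given in the sources used here, so the genes are not ranked. Id1 had coverage of 719.9 and 779.5 untreated and 490.1 and 616.6 after dTAG13. Smad7 had 87.3 and 78.2 untreated and 59.1 and 61.1 after dTAG13. In both genes the dTAG13 values lay below the untreated ones. Bmpr2 had 57.8 and 66.9 untreated and 76.1 and 76.8 after dTAG13, the only gene of the 10 whose dTAG13 values both lay above. Over all 12520 genes, both dTAG13 values lay above in 10.1% and below in 28.1%, before any centring. With each library centred on its median, the log2 differences were -0.36 ± 0.20 for Id1, -0.38 ± 0.23 for Smad7 and 0.38 ± 0.23 for Bmpr2 (SE), with limma adjusted p of 0.464, 0.514 and 0.513. Leaving out a dTAG13 library moved them most: without replicate 1 the values were -0.58 for Smad7 and 0.16 for Bmpr2, and without replicate 2 they were -0.20 and 0.57.

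The groups overlapped for the other 7 genes. Id3 had 1113 and 1295 untreated and 798.4 and 1130 after dTAG13. Id2 had 535.9 and 427.1 untreated and 307.9 and 488.2 after dTAG13, and Id4 had 94.0 and 85.2 against 87.0 and 113.7. Bmpr1a, with its larger number of listed sites after dTAG13, had 181.8 and 193.9 untreated and 130.6 and 198.5 after dTAG13. In Id2, Id3, Bmpr1a, Smad1 and Smad5 the lowest of the 4 values was that of dTAG13 replicate 1, the library with the lowest median coverage. Smad1 had 141.6 and 115.0 against 73.7 and 167.9, and Smad5 had 104.6 and 118.2 against 77.4 and 107.7. Smad6 had 106.2 and 75.2 against 82.6 and 164.0. The log2 differences of these 7 genes ran from -0.26 ± 0.20 for Id3 to 0.46 ± 0.30 for Smad6 (SE), with limma adjusted p of 0.608 and 0.535. The Smad6 value was 0.17 without dTAG13 replicate 2, 0.19 without untreated replicate 2, 0.73 without dTAG13 replicate 1 and 0.74 without untreated replicate 1. None of the 10 genes passed adjusted or unadjusted thresholds in limma, where 0% of 12520 genes passed the first and 12.7% the unadjusted p under 0.05. The median log2 difference was -0.17 over the BMP genes and -0.07 over all genes.

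**Figure D5:**
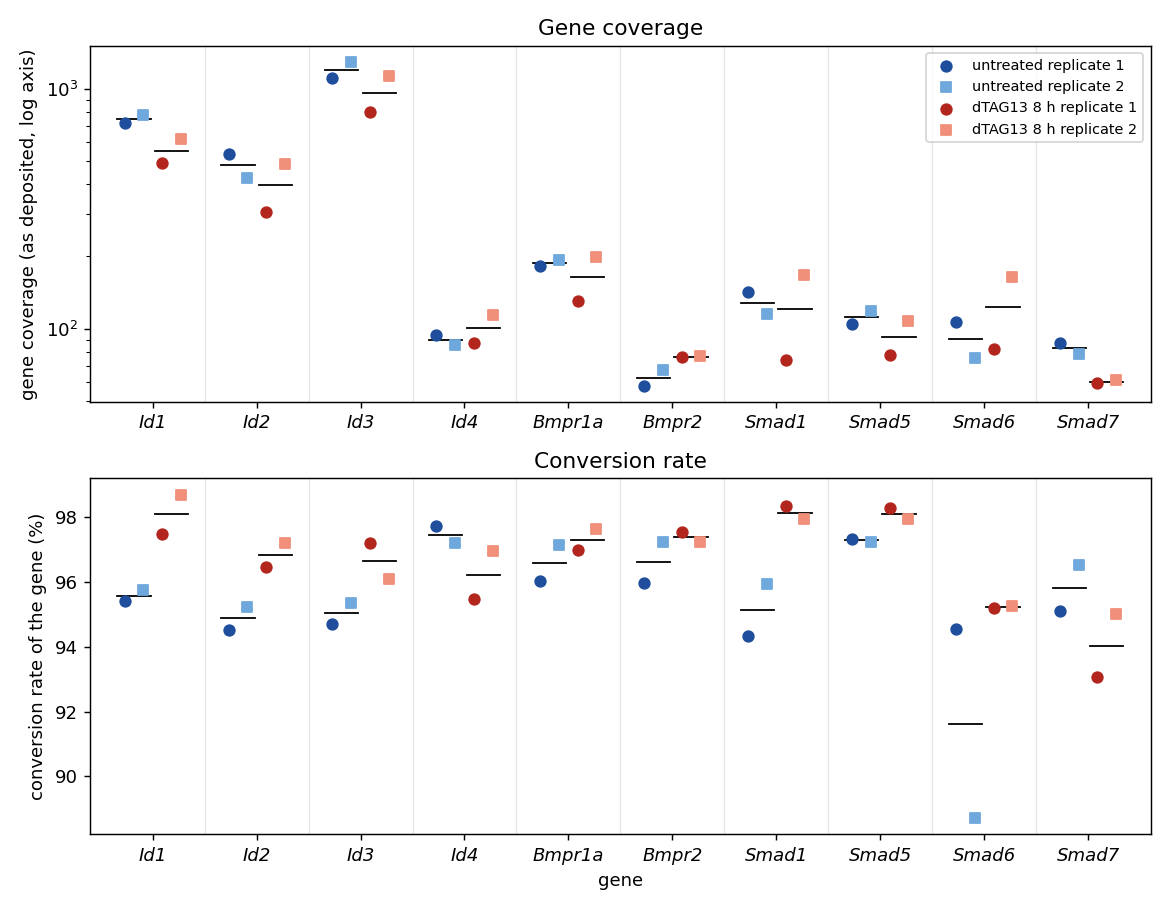
Gene coverage (as deposited, log axis) and conversion rate (percent) of each BMP gene in the 4 libraries, with a line at each group's mean. Id1 and Smad7 lie lower in coverage and Bmpr2 higher after dTAG13, and 6 of the 10 genes have higher conversion in both dTAG13 libraries, as do 40.9% of all genes.

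The conversion rate of a gene is given by the authors beside its sites, and its name is taken to mean the share of A read as G over the gene. Library medians were 95.8% and 96.2% untreated and 96.9% and 96.7% after dTAG13. For Smad1 it was 94.3% and 95.9% untreated and 98.3% and 97.9% after dTAG13, and for Id1 it was 95.4% and 95.8% against 97.5% and 98.7%. Both genes were higher in every dTAG13 library, as were Id2, Id3, Smad5 and Smad6. Among all 12520 genes, 40.9% were higher in both dTAG13 libraries and 6.05% lower, before any centring. For Id2 the values were 94.5% and 95.2% against 96.5% and 97.2%, and for Id3 94.7% and 95.3% against 97.2% and 96.1%. For Smad5 they were 97.3% and 97.2% against 98.3% and 97.9%, and for Smad6 94.6% and 88.7% against 95.2% and 95.2%. Id4 and Smad7 ran the other way. Id4 was at 97.7% and 97.2% untreated and 95.5% and 96.9% after dTAG13, and Smad7 at 95.1% and 96.5% against 93.1% and 95.0%. The receptors overlapped, with Bmpr1a at 96.0% and 97.1% against 97.0% and 97.6% and Bmpr2 at 96.0% and 97.2% against 97.5% and 97.2%.

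After each library was centred on its median, the log2 odds of conversion differed by 1.09 ± 0.28 for Smad1 (limma adjusted p = 0.642) and 1.00 ± 0.41 for Id1 (adjusted p = 0.667). They differed by -0.86 ± 0.33 for Smad7 (limma adjusted p = 0.663) and -0.90 ± 0.35 for Id4 (adjusted p = 0.667). Without dTAG13 replicate 1 the value was 1.51 for Id1 and -0.57 for Id4, and without dTAG13 replicate 2 it was 0.50 for Id1 and -1.22 for Id4. The other 6 differences lay between 0.02 (Bmpr1a) and 0.45 (Smad6). None of the 10 passed the adjusted threshold in limma, as for 0% of all 12520 genes. At an unadjusted p under 0.05, 2 of the 10 passed (Smad1 higher, Smad7 lower), against 7.5% of all genes.

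Other genes of the pathway, 26 ligands, receptors, transducers, antagonists, intracellular inhibitors and targets, were read from the same fits. None was called in edgeR's test of listed sites (21 tested) or limma's tests of coverage and conversion (22 tested each). At an unadjusted p under 0.05, 3 were higher and 1 lower for listed sites, 2 higher and 1 lower for coverage, and 2 higher and 2 lower for conversion, where 11.5%, 12.7% and 7.5% of all genes passed in either direction. Among the ligands, Bmp4 had coverage of 112.1 and 129.3 untreated and 72.4 and 66.4 after dTAG13, a log2 difference of -0.71 (limma adjusted p = 0.367). Bmp7 had 35 and 22 listed sites against 5 and 13 (log2 fold change -1.18, edgeR adjusted p = 0.180). Without dTAG13 replicate 2 the Bmp4 value was -0.45. The Bmp7 value ran from -1.92 (without dTAG13 replicate 2) to -0.73 (without dTAG13 replicate 1), and was -0.77 without untreated replicate 1. Among the antagonists, Nog, which binds BMP ligands outside the cell, had coverage of 38.2 and 44.2 against 62.3 and 117.3 (log2 difference 1.14, limma adjusted p = 0.363). Hey1, a target gene that is shared with the Notch pathway, had 82.6 and 74.1 against 110.5 and 143.5 (log2 difference 0.77, limma adjusted p = 0.363). The 3 genes with the higher listed sites relative to all sites were Acvr2a, Bambi and Hey1. Acvr2a had 33 and 36 against 28 and 48 (log2 fold change 0.62, edgeR adjusted p = 0.336). Bambi had 7 and 7 against 13 and 10 (1.19, edgeR adjusted p = 0.380), and Hey1 6 and 11 against 13 and 14 (1.14, edgeR adjusted p = 0.359). The genes named here are examples from a list in which the coverage of 4 genes was higher and of 6 lower in both dTAG13 libraries (of 22). Over all genes, before any centring, these shares were 10.1% and 28.1%. Listed sites were more in 3 and fewer in 11 (of 21), against 4.51% and 46.4% of all genes. Bmp2, Gdf6, Chrd and Grem1 were not listed in all 4 libraries.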

How the data were processed

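RNA from 4 libraries of mouse organoids was measured by GLORI. The A and G read counts per site and the level, a fraction of A reads, were deposited by the authors, as were a coverage signal and a conversion fraction per gene and the p-value of their own test, per the file headers. The submitters' processing notes name mm10, and the aligner and caller are not given in the sources used here. The 10 genes, the lists and the tests were chosen with earlier results of these data known. Named sites are those listed in 3 or 4 libraries, those with at least 50 reads in both libraries of 1 group and neither of the other, and the highest level per gene and group. Listed sites per gene were tested with edgeR 4.0.16 (genes with at least 10 listed sites over the libraries, offset by all listed sites in genes). Gene coverage (log2) and conversion (log2 odds) were centred on each library's median and tested with limma 3.58.1 in R 4.3.3. Sites in 3 libraries were fitted with a quasi-binomial model in which each library had at least 20 reads and limma moderated the dispersion. P-values were adjusted by Benjamini-Hochberg over all features, with a threshold of 0.05. Each test over 4 libraries was tried on simulated data with 200 changed features. The site fits over 3 libraries, the only ones that held BMP sites, were not simulated. The listed sites test recovered 13.5% of the genes cut to 1/4 of their number of sites. The site test over 4 libraries recovered 44.5% of the sites cut to 1/4 of their level. The coverage and conversion tests recovered 100% of log2 changes of -2. Every gene was there given the same noise, so recovery at the spread of each real gene was not measured. DESeq2 1.42.0, other scalings, filters, the replicate number as a block and leaving out each library were the alternatives. No genome of the files' build was used, so no site sequence is printed.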

Additional observations from a re-analysis of the deposited data

How the results depend on the processing

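No BMP gene passed an adjusted p of 0.05 under any alternative run for listed sites, coverage or conversion. Over all genes, 58 were called for listed sites, and 0 with no offset, 8 with sites at a level of at least 20%, 0 with DESeq2, 62 with the replicate number as a block and 4 to 46 with a library left out. For coverage 0 became 15 with no centring, and conversion gave 0 throughout. The site test over 2321 positions listed in all 4 libraries, which held no BMP site, called 53 sites (51 lower), 0 with the replicate number as a block, 531 with Fisher's exact test on summed reads and 0 to 0 with a library left out. Same-numbered libraries did not deviate together (r = 0.00227 for coverage, 0.00829 for conversion), so the number is not read as a pairing. The ratio of listed BMP sites, 0.808, was 0.692 without Bmpr1a (chosen after the data were seen) and 0.737 to 0.895 with a library left out. The untreated pair shared 23.2% of sites within 5 bases against 9.01% at exact positions.

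Some directions turned, and the cause was not tested. For listed sites (log2) Id1 was -0.45 with no offset, -0.11 with sites of at least 50 reads and -0.18 to 0.27 with a library left out. Id3 was -0.34 with no offset, -0.74 at a level of at least 20% and -0.039 to 0.36 with a library left out. Id4 was -0.10 with no offset and -0.16 to 1.07 with a library left out, and Bmpr2 was -0.36 with no offset. Smad1 was -0.59 to 0.23 with a library left out, and Smad7 was 0.34 at a level of at least 20% and -0.67 to 0.085 with a library left out. The median log2 coverage difference over all genes was -0.15 with no centring and 0.08 with centring on the 75th percentile. For coverage, centring on the 75th percentile gave 0.011 for Bmpr1a and 0.034 for Smad1, and leaving out a library gave -0.51 to 0.25 for Smad1. For conversion Bmpr1a was -0.0625 on the rate itself and -0.19 to 0.23 with a library left out, Bmpr2 -0.16 to 0.25 and Smad6 -0.19 to 1.09. With 1 library left out, the lone library of its group was assumed to vary like the others. Depth limits the near-complete sites most, and an absent position gives no level.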
